A study of Mus musculus with 4 samples.

Results

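The interferon regulatory factors are transcription factors that share a DNA-binding domain, and 8 of them were followed here: Irf1, Irf2, Irf3, Irf4, Irf5, Irf7, Irf8 and Irf9. They were taken by name from the 32868 gene names listed for each library, and no member had a further copy among the rows. Irf5 was selected on its large difference between the groups in these same libraries, so its values are given as a description with no test. The other members were taken because they belong to the family. Of the 8 members, 7 passed the filter on low values (at least 0.5 RPKM, reads scaled to gene length and library depth, in at least 2 libraries), each of them through both groups, and Irf4 did not.

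Total RNA came from the tibialis anterior, a fast muscle at the front of the lower leg, of C57BL/6 mice at postnatal day 21. Muscle labelled Nf1-KO carried the genotype Nf1flox/flox/Myf5+, and muscle labelled Het carried Nf1flox/+/Myf5+. Each group had 2 libraries. The controls were therefore not wild type: they had a floxed Nf1 allele and the Myf5+ label as well. In crosses of this design Myf5+ stands for a Cre recombinase driven from the Myf5 locus in muscle precursors, so that macrophages, vessels and other cells outside that lineage would keep their Nf1 alleles; the labels themselves do not spell this out. They also do not say whether the libraries of a group came from separate animals, so the p-values measure the spread between these libraries only, which may be technical.

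Interferon regulatory factors bind short repeats of the sequence GAAA in the interferon-stimulated response elements (ISRE) of their target genes. IRF3 and IRF7 are switched on by kinases downstream of nucleic acid sensors and start interferon transcription, IRF9 binds DNA as part of a complex that answers interferon, and IRF1 and IRF2 act as activator and antagonist on many of the same sites. IRF4, IRF5 and IRF8 are best known from immune cells, where IRF5 drives inflammatory cytokine genes downstream of Toll-like receptors and IRF8 directs the development of monocytes and dendritic cells.

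The promoters of 4 members are shown: Irf5 and Irf8, lower in Nf1-KO, and Irf1 and Irf2, which did not pass the test. Irf3, the member called higher, and the other members are not printed. Sequences are from RefSeq (GRCm38.p6), from 250 bases before to 50 bases after the annotated start, 5′ to 3′ on the gene's own strand. All 8 members had an entry in that table, with 11 promoters among them, and the entry starting farthest upstream is printed. Capitals mark matches on either strand to AAANNGAAA, an ISRE-like pattern, or to TTCNNNGAA, the GAS pattern bound by STAT proteins. The matches did not overlap one another. The windows are chr6:29526375-29526674 (+) for Irf5, chr8:120736108-120736407 (+) for Irf8, chr11:53769764-53770063 (+) for Irf1 and chr8:46739495-46739794 (+) for Irf2.
Irf5: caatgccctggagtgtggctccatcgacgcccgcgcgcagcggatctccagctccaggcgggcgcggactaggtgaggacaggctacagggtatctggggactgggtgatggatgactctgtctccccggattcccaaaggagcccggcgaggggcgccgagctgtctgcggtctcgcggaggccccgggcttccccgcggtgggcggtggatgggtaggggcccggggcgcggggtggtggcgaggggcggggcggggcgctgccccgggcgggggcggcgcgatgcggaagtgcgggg
Irf8: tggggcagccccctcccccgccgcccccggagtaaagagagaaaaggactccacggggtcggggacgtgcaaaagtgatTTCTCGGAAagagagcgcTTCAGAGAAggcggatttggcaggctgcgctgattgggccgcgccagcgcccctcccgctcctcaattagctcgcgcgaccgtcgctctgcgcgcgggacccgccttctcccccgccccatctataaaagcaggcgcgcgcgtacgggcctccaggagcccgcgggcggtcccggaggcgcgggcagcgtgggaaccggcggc
Irf1: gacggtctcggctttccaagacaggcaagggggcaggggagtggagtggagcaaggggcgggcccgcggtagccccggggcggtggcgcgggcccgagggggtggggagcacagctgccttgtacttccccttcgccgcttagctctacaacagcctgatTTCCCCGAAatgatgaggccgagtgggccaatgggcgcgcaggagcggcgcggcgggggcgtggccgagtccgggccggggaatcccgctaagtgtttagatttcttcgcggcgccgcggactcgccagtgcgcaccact
Irf2: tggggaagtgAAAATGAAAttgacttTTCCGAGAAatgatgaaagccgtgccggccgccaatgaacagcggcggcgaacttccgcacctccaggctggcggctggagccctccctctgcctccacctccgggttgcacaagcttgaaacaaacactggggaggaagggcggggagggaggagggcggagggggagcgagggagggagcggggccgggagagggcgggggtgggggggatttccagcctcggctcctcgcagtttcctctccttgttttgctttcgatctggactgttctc

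The Irf5 window held neither pattern and was the richest of these 4 in G and C, at 74.7% with 35 CpG dinucleotides, against a median GC content of 52.7% over all 32817 promoters in the table. The promoters of Irf3, Irf4, Irf7 and Irf9, not printed, also held neither pattern, so this lack is not particular to Irf5. The Irf8 window held a pair of GAS matches, TTCTCGGAA at -171 and TTCAGAGAA at -153, counted in bases from the start site to the first letter. Irf1 had 1 GAS match, TTCCCCGAA at -90. Irf2 had both an ISRE-like match, AAAATGAAA at -240, and a GAS match, TTCCGAGAA at -224. Over all promoters of this length, 10.5% held the ISRE-like pattern and 8.29% held the GAS pattern on either strand. These are matches of letters within 300 bases and say nothing of binding.

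The deposited values summed to between 532315 and 547144 RPKM per library. Estimated depth was 36600000 and 58000000 reads for Het, and 47000000 and 50800000 reads for Nf1-KO, so 1 RPKM in a gene of 2 kb stood for 73.2 to 116 reads. Replicates were close, with a median coefficient of variation of 2.03% (Het) and 1.91% (Nf1-KO) over 4826 genes of at least 5 RPKM. Nf1 itself held 1.09 and 1.01 RPKM in Het and 0.89 and 0.85 RPKM in Nf1-KO. The authors' deposited table gave Nf1 a log2 fold change of -0.38 with an adjusted p of 0.00258. Limma put Nf1 at -0.18 ± 0.0569 (log2 fold change ± standard error; adjusted p 0.0407), and this call was lost when any 1 of the 4 libraries was left out (adjusted p 0.0566 to 0.179). Limma was fitted to log2(RPKM + 1) after scaling between libraries, and called 50.3% of the 10690 genes tested at an adjusted p under 0.05 (24.9% higher and 25.4% lower in Nf1-KO). Those shares are the background for every limma count that follows, for the family, for its neighbours and for the lists.

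Irf5 (chromosome 6, 29526625 to 29541871, plus strand; GRCm38) was the most abundant member in the Het muscle and 1 of the low ones in Nf1-KO. The Het libraries held 10.55 and 10.80 RPKM of Irf5, and the Nf1-KO libraries held 1.03 and 1.16 RPKM. Both Nf1-KO libraries lay far below both Het libraries, and the libraries of a group lay close together. Mean Irf5 was 10.7 ± 0.177 RPKM (SD, n = 2) for Het against 1.09 ± 0.0919 RPKM (SD, n = 2) for Nf1-KO. After scaling, with no pseudocount, Het muscle had 10.4-fold more Irf5 than Nf1-KO muscle, so 9.61% of the Het level was left. On the scale of the fit, which adds 1 RPKM before the logarithm and so understates the change of low genes, Irf5 stood at -2.55 ± 0.0518 (log2 fold change ± standard error), and 10 of the 10690 tested genes, Irf5 among them, were lower by over 2. The authors' deposited table gave Irf5 -3.39 ± 0.129 on the same quantities, at a mean normalized count of 761. In whole muscle, fewer cells of a type and less RNA per cell cannot be told apart.

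**Figure D1:**
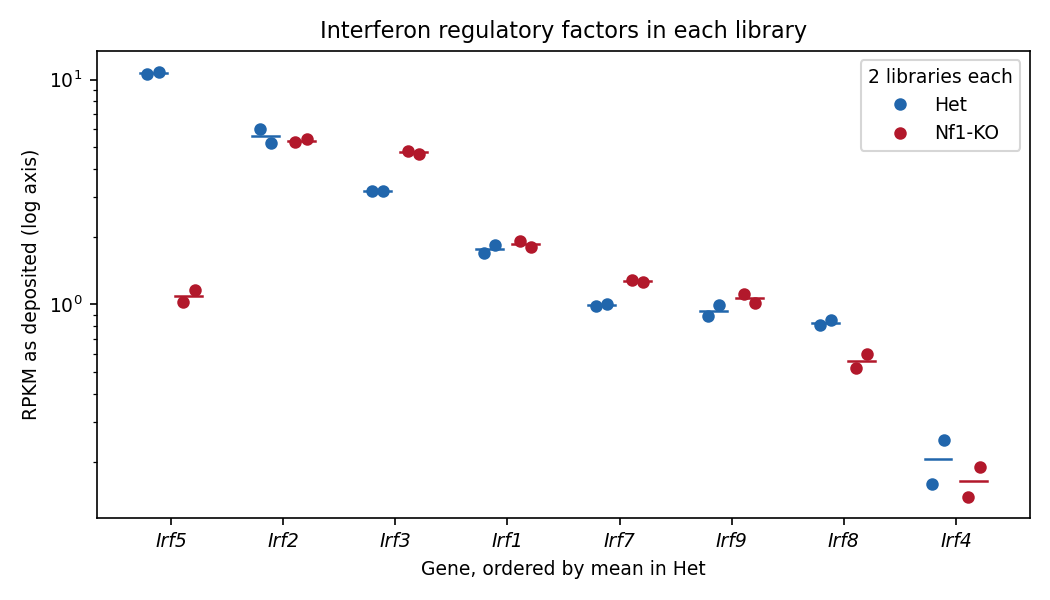
RPKM as deposited (log axis) of the 8 interferon regulatory factors in each of the 2 Het and 2 Nf1-KO libraries; points are libraries and bars are group means, with genes ordered by their mean in Het. Irf5 leads in Het at 10.55 and 10.80 RPKM and lies at 1.03 and 1.16 RPKM in Nf1-KO, while Irf3 is the only other member whose means differ by over 1 RPKM.

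The other 2 members best known from immune cells were low in this muscle. Irf8 (chromosome 8, 120736358 to 120756694, plus strand) held 0.81 and 0.85 RPKM in Het and 0.52 and 0.60 RPKM in Nf1-KO. Its groups did not overlap, and 63.2% of the Het level was left after scaling. Irf8 fell in limma (-0.27 ± 0.0591, adjusted p 0.0106), and the call was lost without Nf1-KO replicate 1 (log2 fold change -0.23, adjusted p 0.0599). In the authors' deposited table the log2 fold change of Irf8 was -0.68 with an adjusted p of 0.00237. Irf4 (chromosome 13, 30749226 to 30766976, plus strand), a factor of lymphocytes and of macrophage polarisation, was the lowest member, at 0.16 and 0.25 RPKM in Het and 0.14 and 0.19 RPKM in Nf1-KO. The groups overlapped, Irf4 lay below the filter and was not tested here, and the authors' deposited table gave it a log2 fold change of -0.45 with an adjusted p of 0.525.

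Irf3 was the member that rose. This gene (chromosome 7, 44997648 to 45002848, plus strand) encodes a factor that is made in most cell types and waits in the cytoplasm for activation by the kinase TBK1. Each Het library held 3.21 RPKM of Irf3, the Nf1-KO libraries held 4.81 and 4.67 RPKM, and the groups did not overlap, with a scaled ratio of 1.38. Limma put Irf3 at 0.37 ± 0.0459 (adjusted p 9.56e-04). The authors' deposited table gave Irf3 a log2 fold change of 0.45 with an adjusted p of 0.00527. Irf7 (chromosome 7, 141262706 to 141266481, minus strand), the amplifier of the interferon response, held 0.98 and 1.01 RPKM in Het and 1.28 and 1.26 RPKM in Nf1-KO. Its groups did not overlap, yet its 0.14 ± 0.0541 did not pass the threshold in limma (adjusted p 0.0793). Irf7 passed with values as deposited and not scaled (log2 fold change 0.19, limma adjusted p 0.0279) and when limma was run with no variance trend (adjusted p 0.0308). With the replicate number as a block in limma it did not pass (adjusted p 0.112). The authors' deposited table gave Irf7 a log2 fold change of 0.24 with an adjusted p of 0.579.

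The remaining 3 members, which act in the response to interferon, did not pass the threshold. Irf1 (chromosome 11, 53770014 to 53778374, plus strand) held 1.69 and 1.83 RPKM in Het and 1.92 and 1.80 RPKM in Nf1-KO, so its groups overlapped. Limma put Irf1 at -0.01 ± 0.0585 (adjusted p 0.909), and at 0.05 without scaling. Irf2 (chromosome 8, 46739732 to 46847458, plus strand) held 6.00 and 5.20 RPKM in Het and 5.27 and 5.43 RPKM in Nf1-KO. The spread between the Het libraries of Irf2 was larger than the difference between the group means, the limma log2 fold change was -0.13 with an adjusted p of 0.137, and without Het replicate 2 it became -0.23 and passed (adjusted p 0.0241). Irf9 (chromosome 14, 55603571 to 55610030, plus strand) held 0.89 and 0.99 RPKM in Het and 1.11 and 1.02 RPKM in Nf1-KO. The groups of Irf9 were apart as deposited and overlapped once scaled, and limma put Irf9 at 0.04 (adjusted p 0.589).

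Of the 6 members tested other than Irf5, limma thus called 2, with 1 higher (Irf3) and 1 lower (Irf8), where 50.3% of all genes tested were called. The groups did not overlap in 4 of these 6 members in RPKM as deposited (Irf3, Irf7, Irf8 and Irf9), against 77.3% of all genes tested. By the authors' deposited table, an adjusted p under 0.05 was held by 2 of the 7 members other than Irf5, again Irf3 and Irf8, against 31.6% of its 13985 genes. These shares were near or below the background.

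**Figure D2:**
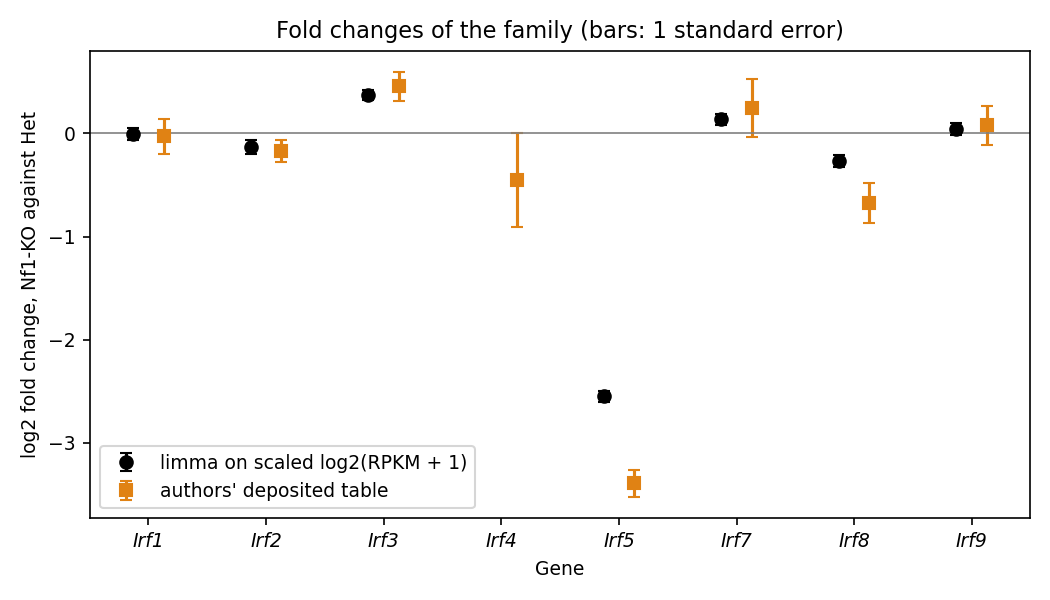
Log2 fold change of each member, Nf1-KO against Het, with bars of 1 standard error: circles are limma on scaled log2(RPKM + 1) and squares are the authors' deposited table. Irf5 stands at -2.55 and -3.39, Irf3 is the member called higher (0.37 and 0.45) and Irf8 the other one called lower (-0.27 and -0.68); Irf4 has no limma value.

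RPKM is per length of gene, so levels can be set beside each other. In Het muscle the order was Irf5, Irf2, Irf3, Irf1, Irf7, Irf9, Irf8 and Irf4, and only the neighbours Irf7 and Irf9 overlapped between libraries. In Nf1-KO muscle the order was Irf2, Irf3, Irf1, Irf7, Irf5, Irf9, Irf8 and Irf4, and the overlapping neighbours were Irf5 and Irf9. Irf5 therefore ranked first in both Het libraries and stood at rank 6 and rank 5 in the Nf1-KO libraries. The summed level of the 8 members was 24.29 and 24.14 RPKM in Het and 16.08 and 16.13 RPKM in Nf1-KO. Leaving Irf5 out, the sums were 13.74 and 13.34 RPKM in Het and 15.05 and 14.97 RPKM in Nf1-KO, so the sum of the other members was not lower in Nf1-KO. Irf5 made up 43.4% and 44.7% of the summed level in Het, and 6.41% and 7.19% in Nf1-KO. The share of Irf3 was 13.2% and 13.3% in Het and 29.9% and 28.9% in Nf1-KO. Part of this rise in share comes from the smaller sum, since Irf3 itself had a scaled ratio of 1.38.

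**Figure D3:**
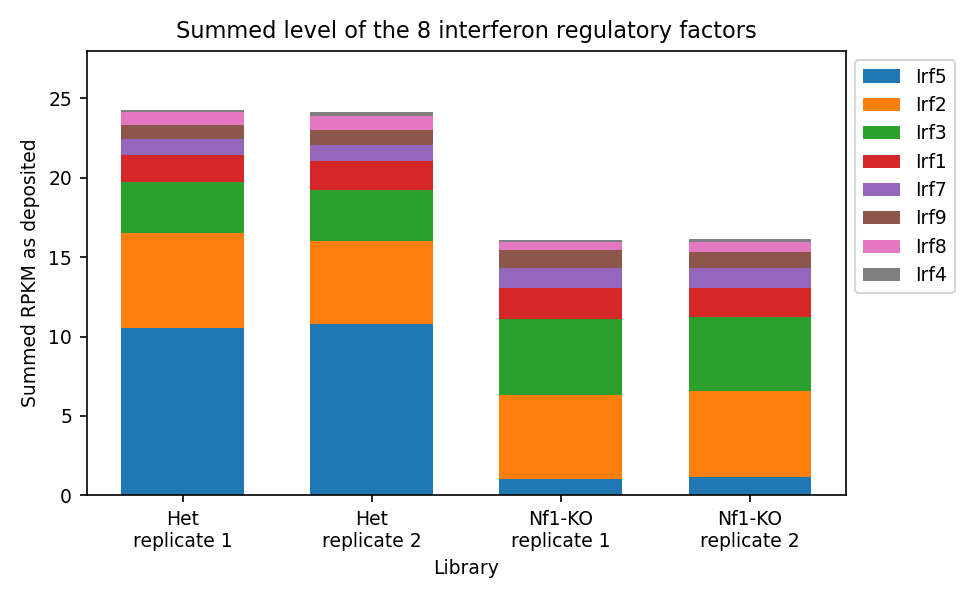
Summed RPKM as deposited of the 8 members in each library, 1 bar per library, stacked by gene. The bars reach 24.29 and 24.14 RPKM in Het and 16.08 and 16.13 RPKM in Nf1-KO, and the lowest segment, Irf5, goes from 43.4% and 44.7% of the bar to 6.41% and 7.19%.

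Several members share exon bases with another gene, and the strand setting of the counting is not given in the sources used here. In the GRCm38 annotation (GENCODE M21), 411 exon bases of Irf5 (14.1% of its exon bases) overlap exons of Tnpo3, a nuclear import receptor gene on the opposite strand. Tnpo3 held 4.76 and 4.73 RPKM in Het and 4.58 and 4.47 RPKM in Nf1-KO, a limma log2 fold change of -0.13 with an adjusted p of 0.0435. Reads from the shared stretch cannot be assigned to Irf5 or Tnpo3 without strand, so the Irf5 values are uncertain. Mean Tnpo3 was below mean Irf5 in Het (4.745 against 10.675 RPKM) and above it in Nf1-KO (4.525 against 1.095 RPKM). The limit therefore weighs most on the Irf5 level left in Nf1-KO, on its ratio to Het and on its rank there. The part of Tnpo3 reads in these values was not tested. Irf3 shares 88 exon bases (2.56%) with Bcl2l12 on the opposite strand. Bcl2l12, which also rose, held 1.22 and 1.37 RPKM in Het and 2.13 and 1.85 RPKM in Nf1-KO, a limma log2 fold change of 0.32 with an adjusted p of 0.0103. Smaller overlaps join Irf1 with Gm17334 (135 bases), Irf7 with Phrf1 (45 bases) and Irf9 with Rnf31 (123 bases, same strand), and Irf2, Irf4 and Irf8 have none. No stretch of 50 bases in a transcript of any member occurred in a transcript of another family member, so reads of that length matching exactly would not be split within the family.

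Within 300 kb on either side of Irf5 the annotation holds 15 protein-coding genes, of which 9 besides Irf5 passed the filter. Of these 9, limma called 3 lower and 2 higher, a share near the 50.3% called over all genes. The next gene upstream, Kcp, which encodes a secreted regulator of BMP signalling, lay below the filter at 0.39 and 0.28 RPKM in Het and 0.13 and 0.17 RPKM in Nf1-KO. The authors' deposited table gave Kcp a log2 fold change of -1.27 with an adjusted p of 8.6e-04. Flnc, the filamin of muscle fibres, fell from 73.51 and 75.79 RPKM in Het to 54.64 and 52.47 RPKM in Nf1-KO, a limma log2 fold change of -0.56 with an adjusted p of 2.89e-05. Atp6v1f, a subunit of the vacuolar proton pump that lies between Flnc and Kcp, differed by 0.02 on the log2 scale (limma adjusted p 0.758). Beyond Tnpo3, Smo, the signal transducer of the Hedgehog pathway, rose by 0.29 on the log2 scale (limma adjusted p 0.0175).

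**Figure D4:**
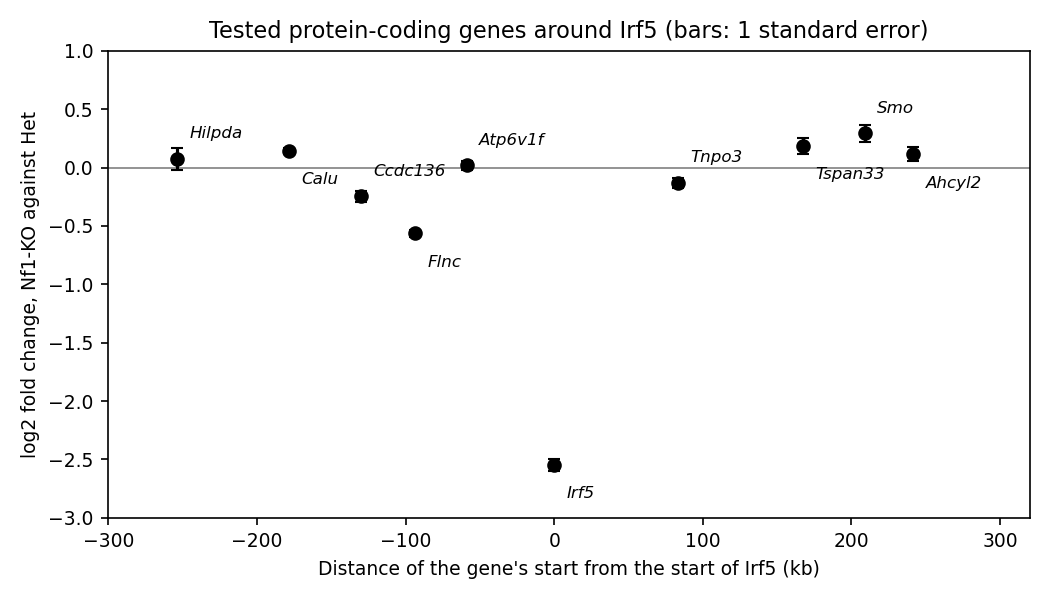
Limma log2 fold change, Nf1-KO against Het, of the protein-coding genes tested within 300 kb of Irf5, by the distance of each gene's start from the start of Irf5 in kb; bars are 1 standard error. Irf5 stands at -2.55, while the 9 neighbours lie between Flnc at -0.56 and Smo at 0.29.

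The genes around the family in the interferon pathway were followed in lists. All 9 interferon ligand genes of the list (Ifna1, Ifna2, Ifna4, Ifnb1, Ifne, Ifnk, Ifng, Ifnl2 and Ifnl3) were listed at 0 in all 4 libraries; 44.7% of all rows were listed at 0 in every library, so a listed 0 is not evidence of absence. Of 16 receptor and JAK-STAT genes, 14 were tested, and 3 rose and 4 fell, with a median log2 fold change of 0.01 where the median over all genes tested was 0.00. The authors' deposited table called 1 of 15 higher and 4 lower, against 31.6% of its genes in either direction. The 7 limma calls among 14 genes are near the background of 50.3%. They include Usp18, an inhibitor of interferon receptor signalling, which held 0.82 and 0.66 RPKM in Het and 0.44 and 0.45 RPKM in Nf1-KO and passed the filter through the Het libraries alone, so that the filter itself favoured a fall; it is named here after its values were seen. The kinase gene Jak2 fell from 15.60 and 15.39 RPKM in Het to 8.12 and 8.51 RPKM in Nf1-KO (log2 fold change -0.91, limma adjusted p 9.22e-06). Jak1 fell from 28.17 and 28.18 RPKM to 17.62 and 18.23 RPKM (log2 fold change -0.71, limma adjusted p 1.04e-05). Ifngr2, a chain of the interferon gamma receptor, fell by 0.43 on the log2 scale (limma adjusted p 4.07e-05), and Il10rb, a chain of the interferon lambda receptor, rose by 0.47 (limma adjusted p 0.0255; lost without Het replicate 1, at 0.0628, and with no filter on low values, at 0.135).

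Upstream of the family, 15 of 25 genes for sensors, adaptors and kinases were tested. In limma 6 rose and 3 fell (median log2 fold change 0.12), where 50.3% of all genes tested were called. The authors' deposited table called 3 of 21 higher and 3 lower, against 31.6% of its genes in either direction. Traf3, an adaptor that links receptors to the kinases of IRF3 and IRF7, fell from 6.04 and 6.02 RPKM in Het to 3.05 and 2.96 RPKM in Nf1-KO (log2 fold change -0.89, limma adjusted p 2.17e-05). Traf6, a ubiquitin ligase that activates IRF5 in Toll-like receptor signalling, fell by 0.36 on the log2 scale (limma adjusted p 0.00155), and Slc15a4, an endolysosomal transporter needed for IRF5 activation in immune cells, fell by 0.33 (limma adjusted p 0.0038). Irak1, a kinase of the same route, rose by 0.31 (limma adjusted p 0.00436), and Mavs, the mitochondrial adaptor of the RNA sensors, rose by 0.19 (limma adjusted p 0.00808). Among 13 partner and modifier factors, 11 were tested. In limma 6 rose and 2 fell (median 0.13), against 24.9% higher and 25.4% lower over all genes. The authors' deposited table called 4 of 12 higher and 2 lower, against the same 31.6%. The 6 that rose in limma include Spi1, which was tested only because it passed the filter through the group where it was high. Irf2bp2, a corepressor that binds IRF2, rose from 5.79 and 5.67 RPKM to 9.07 and 9.29 RPKM (log2 fold change 0.51, limma adjusted p 1.2e-04). Cebpb, a factor of macrophage and adipocyte genes, rose by 0.65 (limma adjusted p 1.11e-04), and Relb, of the NF-kappaB family, fell by 0.59 (limma adjusted p 6.62e-04). Spi1, the partner of IRF4 and IRF8 on composite sites, passed the filter through the Nf1-KO libraries alone, at 0.43 and 0.39 RPKM in Het and 0.86 and 0.81 RPKM in Nf1-KO.

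Downstream of the family, 22 of 30 interferon-stimulated genes were tested, and 3 rose and 5 fell, with 14 not called and a median log2 fold change of -0.09. The 8 calls among 22 genes are a smaller share than the 50.3% over all genes, so the list as a whole is not set apart by its number of calls. Bst2, which tethers budding virus, fell by 0.63 on the log2 scale (limma adjusted p 0.00156), from 6.46 and 5.41 RPKM in Het to 3.97 and 3.47 RPKM in Nf1-KO. Ifit3, an antiviral RNA-binding protein gene, fell by 0.62 (limma adjusted p 8.17e-04), and the guanylate-binding protein genes Gbp2 and Gbp3 fell by 0.44 and 0.36. Irgm1, a GTPase of cell-autonomous immunity, rose by 0.28 (limma adjusted p 0.00254). Of 14 genes of MHC class I and antigen processing, 13 were tested, and 0 rose and 7 fell in limma (median -0.28; 1 rose and 7 fell without scaling). The share called was near the 50.3% over all genes, of which 25.4% were lower. None rose at an unadjusted p under 0.05 in limma, and the authors' deposited table called 0 of 14 higher and 7 lower. H2-K1, a classical class I heavy chain, fell from 28.96 and 27.44 RPKM to 14.96 and 15.64 RPKM (log2 fold change -0.93, limma adjusted p 9.7e-06). B2m, the light chain, fell from 59.44 and 60.45 RPKM to 34.43 and 38.43 RPKM (log2 fold change -0.80, limma adjusted p 5.2e-05). Only 2 of 12 cytokine and chemokine genes linked to IRF5 were tested, each of which passed the filter through 1 group alone. Il12a, a subunit of interleukin 12, held 1.97 and 1.60 RPKM in Het and 0.39 and 0.48 RPKM in Nf1-KO, and Ccl2, a monocyte attractant, held 0.07 and 0.17 RPKM in Het and 0.98 and 0.70 RPKM in Nf1-KO.

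**Figure D5:**
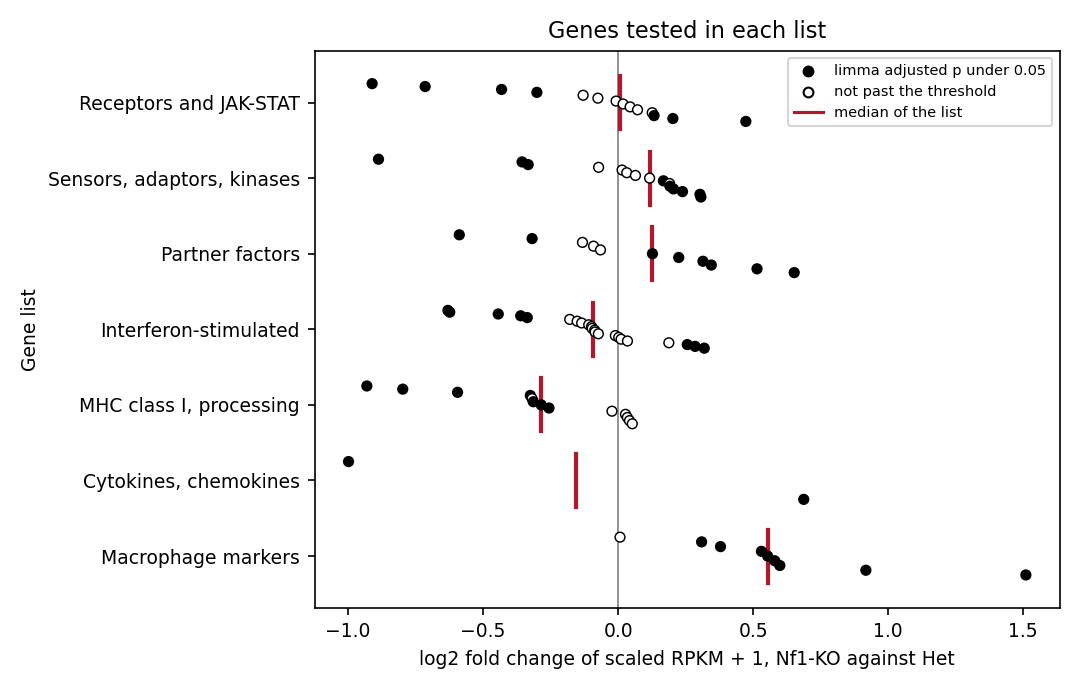
Limma log2 fold change of scaled RPKM + 1, Nf1-KO against Het, of each gene tested in 7 lists; filled points have an adjusted p under 0.05, open points do not, and red bars are list medians. The MHC class I list has a median of -0.28 with 7 genes lower, and the macrophage list has a median of 0.55 with 8 genes higher.

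Since Irf5 and Irf8 are known from macrophages and dendritic cells, markers of those cells are given beside them. Of 15 macrophage and monocyte markers, 9 were tested, and 8 rose and 0 fell in limma (median log2 fold change 0.55). Over all genes tested, 24.9% were called higher, and the median was 0.00. None of these markers fell at an unadjusted p under 0.05, and the authors' deposited table called 7 of 14 higher and 0 lower. Their summed level was 18.67 and 17.90 RPKM in Het and 44.17 and 43.98 RPKM in Nf1-KO. Lyz2 held the largest part of this sum in each library. Lyz2, lysozyme, rose from 7.47 and 7.38 RPKM to 24.35 and 24.62 RPKM (log2 fold change 1.51, limma adjusted p 8.42e-07), and Tyrobp, a signalling adaptor, rose by 0.92 (limma adjusted p 3.15e-04). Among the defining markers, Csf1r held 0.60 and 0.53 RPKM in Het and 1.29 and 1.37 RPKM in Nf1-KO. Cd68 held 0.36 and 0.78 RPKM and then 1.72 and 1.17 RPKM. The limma call of Cd68 (adjusted p 0.02) was lost with no filter on low values (0.12). It was also lost without Het replicate 1, where the log2 fold change was 0.40 in place of 0.60. Ptprc, below the filter, held 0.16 and 0.17 RPKM and then 0.24 and 0.29 RPKM (adjusted p 0.216 in the authors' deposited table), and Adgre1 was listed at 0. The 1 tested marker not called was Mrc1 (log2 fold change 0.01, limma adjusted p 0.945). Irf5 and Irf8 were thus lower in the libraries where the 8 called markers were higher. The ratio of mean Irf5 to mean Csf1r was 18.9 in Het and 0.823 in Nf1-KO, and that of Irf5 to Lyz2 was 1.44 and 0.045. Irf5 was selected for its fall in these libraries, so lower ratios follow in part from that choice and are a description only. The 6 dendritic cell markers summed to 0.87 and 0.82 RPKM in Het and 1.33 and 1.07 RPKM in Nf1-KO. The 9 B and T lymphocyte markers summed to at most 0.41 RPKM in any library, and none of these 15 genes passed the filter. Among 8 muscle fibre markers, which check the labelled tissue, 6 fell and 2 rose, where 50.3% of all genes were called, and Acta1, skeletal actin, held 15930 and 15803 RPKM in Het and 12516 and 12305 RPKM in Nf1-KO. Of 6 endothelial and fibroblast markers, 4 rose and 1 fell in limma, against the same 50.3%, and 1 rose and 1 fell in the authors' deposited table. The part of any of these cell types in the Irf5 and Irf8 values was not tested.

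The genes whose pattern over the 4 libraries was most like that of Irf5 were found by the Euclidean distance between deviations from each gene's own mean of scaled log2(RPKM + 1). Cbr2, a carbonyl reductase gene, came closest, at a distance of 0.0773, with 12.53 and 13.06 RPKM in Het and 1.56 and 1.57 RPKM in Nf1-KO. Smox, spermine oxidase, followed at 0.097, with 81.58 and 80.84 RPKM in Het and 13.69 and 13.42 RPKM in Nf1-KO. The next pair were rows named by a sequence identifier, S60130_gene at 0.195 and S60135_gene at 0.258. Lrtm2, a leucine-rich repeat membrane protein gene, came next at 0.394, with 4.07 and 3.91 RPKM in Het and 0.15 RPKM in each Nf1-KO library. With 4 libraries in 2 groups, this likeness is mostly the size of the difference between the groups, and no other member of the family was among these 5 genes.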

How the data were processed

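Total RNA of 4 tibialis anterior libraries was measured, 2 per group by the genotype in the labels. The submitters' processing notes name STAR 2.4.2a, DESeq2 and the build mm9; strand setting and annotation are not given in the sources used here. The authors deposited 1 value per gene and library, read here as RPKM. Over 4544 genes, the authors' mean count divided by this value rose with transcript length (log-log slope 0.951). The authors also deposited a comparison table whose columns, per the file headers, are a signal (mean normalized count), a log2 fold change with its standard error, a test score, and p-values before and after adjustment. Of 34682 rows per library, 33 named by a number were left out, and the highest-mean copy of each name was kept.

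Values were scaled by a trimmed mean of log ratios (trimming 30% by ratio and 5% by abundance; factors 0.969, 0.967, 1.03 and 1.03) and tested as log2(RPKM + 1) with limma 3.58.1 in R 4.3.3, with a variance trend and no covariate. Tests were two-sided and took genes that reached 0.5 RPKM in 2 or more libraries, with Benjamini-Hochberg adjustment over 10690 genes. An exact permutation test of 2 against 2 cannot go below 0.333, so calls rest on limma's shared variance. The procedure was run on simulated data, with changes placed only in genes of higher mean level, on the scale of the fit, than any member. It therefore does not show how often changes in genes as low as the members would be called. Depth was estimated from the steps of low values; no count test was run. Replicate numbers did not pair the libraries (correlation of deviations -0.018 over 10690 genes). Means and SD are of RPKM as deposited, fold changes of scaled values. Positions are GRCm38 from GENCODE M21, found by symbol, and are not those of mm9.

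The family, lists and tests were chosen with earlier results of these data known. Named genes are all members, Nf1, genes next to Irf5 or overlapping a member's exons, up to 4 called members of each list with the largest change and up to 2 with the highest mean, the defining markers, and the 5 genes most like Irf5; some items are not reported here. Alternatives were other pseudocounts and filters, no scaling, no variance trend, a replicate block, and leaving out each library.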

Additional observations from a re-analysis of the deposited data

How the results depend on the processing

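Irf3 stayed called higher under every alternative run, with a log2 fold change of 0.36 to 0.46. The log2 fold change of Irf5 ran from -3.26 with a pseudocount of 0.1 and -2.89 with 0.5 to -2.48 with values as deposited. Of the 2 members called besides Irf5, 1 was left when every library had to hold at least 1 RPKM, which removes Irf8, the limma fit without a variance trend called 3, and leaving out 1 library in turn gave 1 to 3. Irf1 changed sign, to 0.0515 with values as deposited, and ran from -0.0519 to 0.0277 when 1 library was left out. Among the lists, receptor and JAK-STAT calls numbered 4 (without Het replicate 1) to 7 with 1 library left out, sensor calls 5 with no filter, and macrophage marker calls 4 with 1 RPKM in every library. Endothelial and fibroblast calls numbered 3 with no filter, 3 without a variance trend, and 2 (without Het replicate 2) to 4 with 1 library left out, where Cdh5 ran from -0.0116 to 0.0209. The cause of these changes was not tested. The replicate number as a block gave 5231 genes called in place of 5372, and Nf1 lost its call (limma adjusted p 0.0559). The labels do not say whether libraries of the same number share anything besides that number. Without scaling, 66.6% of called genes were higher in place of 49.5%. Irf4 was left out by the filter of 0.5 RPKM, which does not depend on depth. Depth itself is an estimate, so no counting intervals are given.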
